A study of Mus musculus with 15 samples.

Results

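Collagen chains are the proteins that wind into the triple helices of the extracellular matrix, and their genes are named by collagen type and chain. Every row of the deposited expression table whose symbol has the form Col, a type number, the letter a and a chain number was taken, which gave 41 of the 17271 genes. RNA-seq had been run on 15 mammary tumours of BALB/c mice, all p53 null, from 4 models: 2208L with 8 samples, 2151R with 4, 2225L with 2 and T11 with 1. The titles mark 4 of the 2208L samples PBS, 3 as 3day nt and 1 as ROSEN, and 2 of the 2151R samples NT or NT2. The other 2 samples of 2151R carry other marks in their titles, and the meaning of these marks, of NT, of nt and of ROSEN is not stated. One sample of 2225L is titled T-Vivo and the other ROSEN. Titles of the PBS samples begin with DH and those of the 3day nt samples with KM, marks whose meaning is not stated. Those marks and the PBS or 3day nt group cannot be told apart. What the PBS and 3day nt animals received beyond the titles is not stated, and nothing says whether samples of a model came from separate animals, so the p-values measure only the spread between these samples.

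Fibrillar collagens (types I, II, III, V, XI, XXIV and XXVII) form the banded fibres of stroma and cartilage. Type IV chains form the sheet of the basement membrane on which epithelium and vessels rest, and types VIII and X form short-chain networks. Other types decorate fibrils, cross the cell membrane or anchor the basement membrane to the tissue beneath. In a mammary tumour the stroma is known as the main maker of fibrillar chains, while tumour cells, vessels and stroma all contribute type IV.

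The deposited values are log2 values centred for each gene on a level that is not stated, so 1 unit is a doubling, a value of 0 is that gene's own reference, and levels of different genes cannot be ranked. All 41 chains were tested with no filter on low values. Models were compared with limma over all 17271 genes, and a chain is said to have risen or fallen where the Benjamini-Hochberg adjusted p was under 0.05. T11 has 1 sample and no test, and differences of at least 1 log2 unit are counted for it instead. Values of 2151R and 2225L are given in replicate order, and the 3 values for 2208L are always its lowest, median and highest. No read counts are given, so sequencing depth is unknown. In bulk tumours fewer cells of a type and less RNA per cell cannot be told apart. The library numbers of 2151R, of the PBS samples and of the 3day nt samples lie in separate ranges, so library range and group cannot be told apart either.

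Chains moved in both directions between models, and the members that moved differed by class. From 2208L to 2151R, 10 chains were higher and 13 lower of 41 (24.4% and 31.7%), beside 26.1% of all genes higher and 22.7% lower. From 2208L to 2225L, 3 chains were higher and 13 lower (7.32% and 31.7%), beside 15.6% and 17.3% of all genes. From 2151R to 2225L, 11 were higher and 12 lower (26.8% and 29.3%), beside 22.8% and 25.8%. These 3 comparisons share samples, so their counts are not independent. In all, 28 chains changed in at least 1 of them and 13 in none. The 9 that changed in all 3 were Col2a1, Col4a6, Col5a1, Col6a3, Col9a1, Col9a3, Col16a1, Col17a1 and Col25a1.

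**Figure D1:**
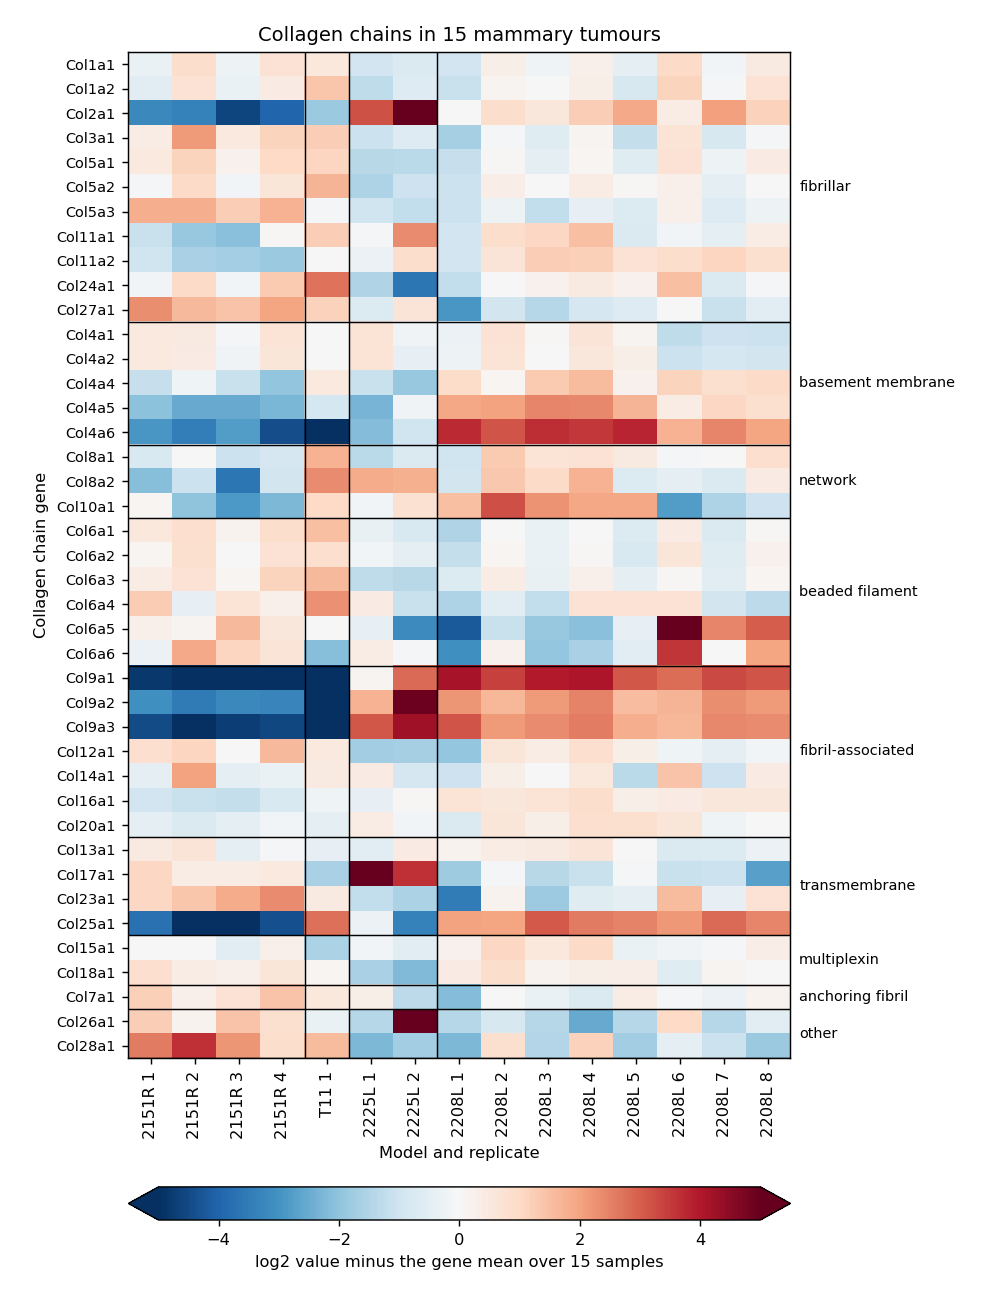
Heat map of the 41 collagen chains (rows, grouped by class) in the 15 samples (columns, grouped by model), coloured by log2 value minus the mean of that gene over the 15 samples, red above and blue below. The 3 type IX chains, Col4a6, Col25a1 and Col2a1 have the widest spread over the samples, and Col13a1 the narrowest.

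The SD over the 15 samples ran from 0.483 for Col13a1 to 4.76 for Col9a1, with a median of 1.125 over the chains and 0.692 over all genes. Markers of other tissues differed between libraries, and their part in the results was not tested. A list of 8 adult skeletal muscle genes stood at 5.99 in 2151R replicate 3, 9.10 in 2208L replicate 6 and 8.59 in 2208L replicate 8, against -4.99 to 1.34 in the other 12 samples. These levels are means over the list after each gene was centred on its mean over the 15 samples. On the same scale 7 epithelial markers, Epcam and Cdh1 among them, stood at -4.38 to -3.31 in 2151R and -7.80 in T11, against 2.09 to 2.83 in 2208L and 2.26 and 2.40 in 2225L, and all 7 fell from 2208L to 2151R. A list of 10 fibroblast genes ran from 0.18 to 1.68 in 2151R, was 0.16 in T11, -0.67 and -0.18 in 2225L and ran from -1.66 to 1.14 in 2208L, with the lowest value in the ROSEN sample (replicate 1). A list of 6 adipocyte genes ran from 1.26 to 4.22 in 2151R, was -1.62 in T11, -3.63 and 1.2 in 2225L and ran from -4.32 to 1.81 in 2208L. From 2208L to 2151R 3 of these 6 and 5 of 7 endothelial genes rose, and none of either list fell in limma. Of all genes 26.1% rose and 22.7% fell. The endothelial list ran from 0.44 to 0.96 in 2151R and from -1.16 to 0.38 in 2208L, and was 0.30 and -0.73 in 2225L and 0.75 in T11.

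Among the fibrillar chains, 2151R differed from 2208L in types II, III, V, XI and XXVII, and not in type I. Of 11 chains 4 rose (Col27a1, Col5a3, Col3a1 and Col5a1) and 2 fell (Col2a1 and Col11a2), beside 26.1% of all genes higher and 22.7% lower. The median difference was 0.41 beside 0.10 over all genes. Type I collagen, the bulk of most fibrous tissue, is encoded by Col1a1 and Col1a2. Col1a1 measured -0.11, 1.08, -0.04 and 0.92 in 2151R, -0.74 and -0.50 in 2225L and 0.74 in T11. In 2208L its lowest, median and highest values were -0.74, 0.27 and 1.16, and these spanned nearly the whole range of the other models. Col1a2 measured -0.43, 0.84, -0.24 and 0.51 in 2151R, -1.15 and -0.52 in 2225L and 1.49 in T11, against -1.0, 0.17 and 1.2 in 2208L. Neither passed the test in any model comparison: 2151R differed from 2208L by 0.23 for Col1a1 (adjusted p = 0.602) and 0.04 for Col1a2 (adjusted p = 0.942). From 2208L to 2225L the differences were -0.86 (adjusted p = 0.148) and -0.97 (adjusted p = 0.159). The difference between the 2 chains, which assemble into 1 molecule, had an SD of 0.305 over the 15 samples.

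Col3a1, which co-assembles into the type I fibres of soft tissue, measured 0.44, 2.18, 0.56 and 1.19 in 2151R, -1.02 and -0.58 in 2225L and 1.30 in T11, against -1.59, -0.28 and 0.76 in 2208L. It was 1.47 higher in 2151R than in 2208L (adjusted p = 0.0112), with overlapping ranges, and differed by -1.89 from 2151R to 2225L (adjusted p = 0.0192), where every sample of 2225L lay below every sample of 2151R. The first call was lost with only the samples titled NT, nt or PBS, at 1.08 (adjusted p = 0.083), and the second without 2225L replicate 1, at -1.68 (adjusted p = 0.103), or replicate 2, at -2.11 (adjusted p = 0.0553). Type V chains nucleate and thin those fibres. Col5a1 measured 0.41, 1.02, 0.13 and 0.92 in 2151R, -1.47 and -1.45 in 2225L and 0.99 in T11, against -1.23, -0.19 and 0.64 in 2208L. Col5a2 measured 0.00, 1.01, -0.06 and 0.65 in 2151R, -1.48 and -0.99 in 2225L and 1.75 in T11, against -1.01, 0.10 and 0.42 in 2208L. On average both were lowest in 2225L. Col5a1 fell by 1.22 from 2208L to 2225L (adjusted p = 0.0315) and Col5a2 by 1.22 (adjusted p = 0.0215), but among ROSEN libraries alone, 1 sample each, the differences were -0.22 and 0.02. The Col5a1 call was lost without either sample of 2225L and the Col5a2 call without replicate 1, at -0.98 (adjusted p = 0.158). Both were also lost with quantile normalization, with sample weights and with library prefix as a covariate. In 2151R, Col5a1 was 0.86 higher than in 2208L (adjusted p = 0.0326), a call lost in 8 of 25 alternatives.

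Col5a3 behaved apart from its partners. It measured 2.09, 2.09, 1.48 and 1.99 in 2151R, -0.76 and -0.98 in 2225L and 0.19 in T11, against -0.98, -0.26 and 0.51 in 2208L. All 4 samples of 2151R lay above all others. The difference from 2208L was 2.19 (SE 0.25, adjusted p = 8.86e-06), while 2225L minus 2208L was -0.59 (adjusted p = 0.183).

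**Figure D2:**
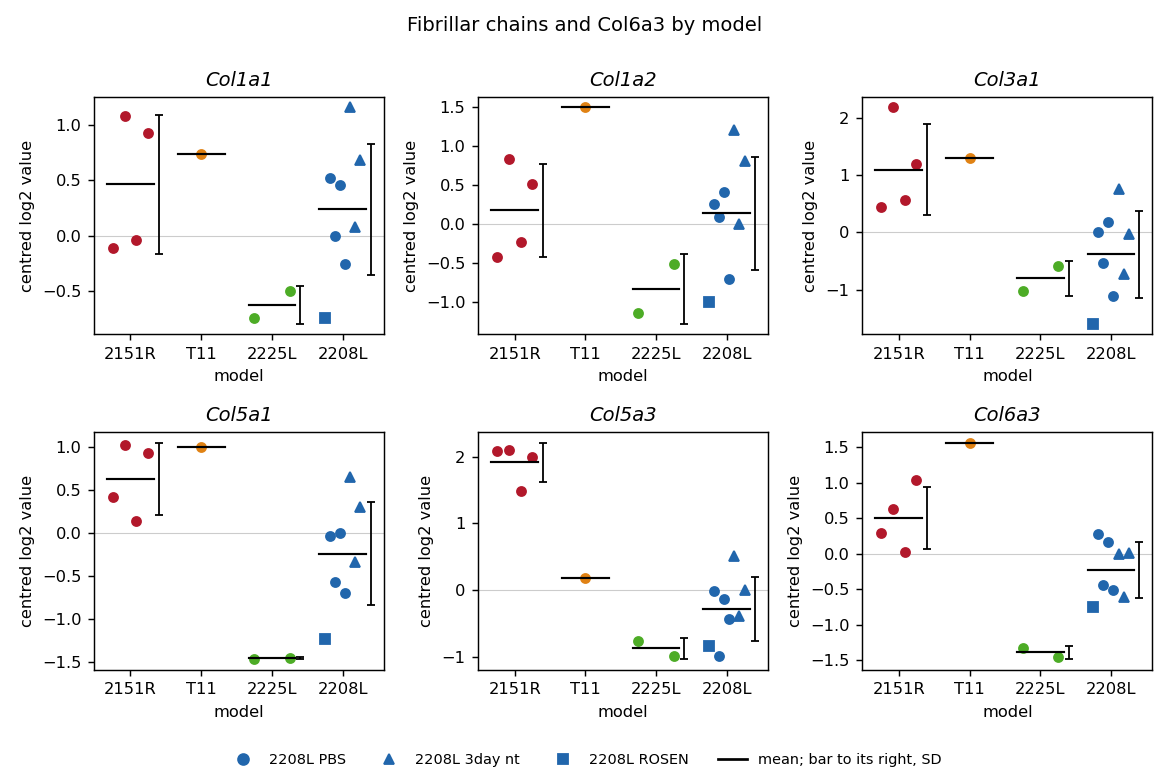
Centred log2 values (vertical axis) of the fibrillar chains Col1a1, Col1a2, Col3a1, Col5a1 and Col5a3 and of Col6a3 in each sample, by model; horizontal lines are means and the bar beside each is the SD. Both samples of 2225L lie at or near the bottom of each panel, and the 4 samples of 2151R lie above all others for Col5a3 only.

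Col2a1 gave the widest fibrillar differences between models. Col2a1, the type II chain that makes up cartilage fibrils, measured -3.21, -3.39, -4.60 and -3.98 in 2151R, 3.17 and 5.72 in 2225L and -1.88 in T11, against 0.00, 1.01 and 2.06 in 2208L. The 4 models did not overlap. From 2208L it fell by 4.81 in 2151R (adjusted p = 2.95e-06) and was 3.43 higher in 2225L (adjusted p = 0.0011). Col11a2, a partner of type II in cartilage, measured -1.66, -2.27, -2.34 and -2.49 in 2151R, -0.95 and 0.21 in 2225L and -0.62 in T11, against -1.58, 0.21 and 0.58 in 2208L. All of 2151R lay below all of 2208L, with a difference of -2.24 (adjusted p = 0.000223). Col11a1, the other type XI chain, measured -1.30, -2.07, -2.24 and -0.11 in 2151R, -0.26 and 2.18 in 2225L and 1.08 in T11, against -1.13, -0.04 and 1.34 in 2208L. Its only called difference was 2.39 from 2151R to 2225L (adjusted p = 0.0281), where the ranges overlapped, and it was lost without 2225L replicate 2, at 1.17 (adjusted p = 0.369).

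The fibrillar chains Col24a1 and Col27a1, known from bone and cartilage, moved in separate models. Col24a1 measured 0.00, 1.11, 0.00 and 1.46 in 2151R, -1.35 and -3.49 in 2225L and 2.85 in T11, against -1.09, 0.25 and 1.65 in 2208L. It was lower in 2225L than in every other sample and fell by 2.61 from 2208L (adjusted p = 0.00811). That call was lost with sample weights and without 2225L replicate 2, at -1.54 (adjusted p = 0.179). Col27a1 measured 1.68, 0.98, 0.79 and 1.34 in 2151R, -1.34 and 0.00 in 2225L and 0.53 in T11, against -3.56, -1.52 and -0.66 in 2208L. All of 2151R lay above all of 2208L, by 2.89 (adjusted p = 0.000121). Over the class, 2225L against 2208L gave 1 chain higher and 3 lower of 11 with a median of -0.59, beside -0.04 over all genes. The same chains from 2151R to 2225L gave 3 higher and 6 lower with a median of -1.64, beside -0.10. Shares of all genes were 15.6% higher and 17.3% lower in the first comparison, and 22.8% and 25.8% in the second.

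The basement membrane class split into a pair that passed no model comparison and a trio that fell from 2208L to both 2151R and 2225L. Inside 2208L the pair was higher in the PBS than in the 3day nt samples, as given below. Of the 6 type IV genes 5 are in the table, and Col4a3 was not analysed here. Col4a1 and Col4a2, whose products form the type IV network found in all basement membranes, passed no model comparison. Col4a1 measured 0.25, 0.19, -0.30 and 0.43 in 2151R, 0.45 and -0.41 in 2225L and -0.29 in T11, against -1.50, -0.37 and 0.49 in 2208L. Col4a2 measured 0.20, 0.15, -0.46 and 0.33 in 2151R, 0.43 and -0.69 in 2225L and -0.26 in T11, against -1.36, -0.39 and 0.43 in 2208L. Their difference had an SD of only 0.118 over the 15 samples, and the transcript starts used for their promoters lie 21 bases apart on opposite strands. From 2208L to 2151R they differed by 0.66 (adjusted p = 0.18) and 0.53 (adjusted p = 0.255).

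Col4a4, Col4a5 and Col4a6 form the type IV networks of restricted tissues, such as the kidney filter and the membranes under some epithelia and around smooth muscle. On average all 3 were highest in 2208L. Col4a4 measured -0.94, 0.00, -0.89 and -1.76 in 2151R, -0.90 and -1.66 in 2225L and 0.72 in T11, against 0.33, 1.16 and 1.82 in 2208L. Col4a5 measured -1.17, -1.61, -1.64 and -1.40 in 2151R, -1.44 and 0.73 in 2225L and 0.01 in T11, against 1.27, 2.72 and 3.34 in 2208L. Col4a6 measured -0.95, -1.49, -0.80 and -2.47 in 2151R, -0.18 and 1.0 in 2225L and -5.37 in T11, against 3.70, 5.32 and 5.78 in 2208L. For each, all samples of 2151R and of 2225L lay below all of 2208L. In 2151R, Col4a6 fell by 6.41 (SE 0.47, adjusted p = 1.21e-07), Col4a5 by 3.94 (SE 0.44, adjusted p = 8e-06) and Col4a4 by 2.0 (SE 0.34, adjusted p = 0.00026). In 2225L they fell by 4.57, 2.84 and 2.39 (adjusted p = 9.6e-05, 0.00211 and 0.00102). The Col4a5 call was lost without 2225L replicate 1, at -1.76 (adjusted p = 0.058), and the Col4a4 call with sample weights. Within CP libraries, 1 sample of 2225L against 7 of 2208L, the Col4a6 difference was -5.06, and within ROSEN libraries, 1 against 1, it was -4.72. The class median was -2.0 in 2151R and -2.39 in 2225L, with 0 chains higher and 3 lower of 5 each time. Of all genes 26.1% were higher and 22.7% lower in 2151R, and 15.6% and 17.3% in 2225L.

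**Figure D3:**
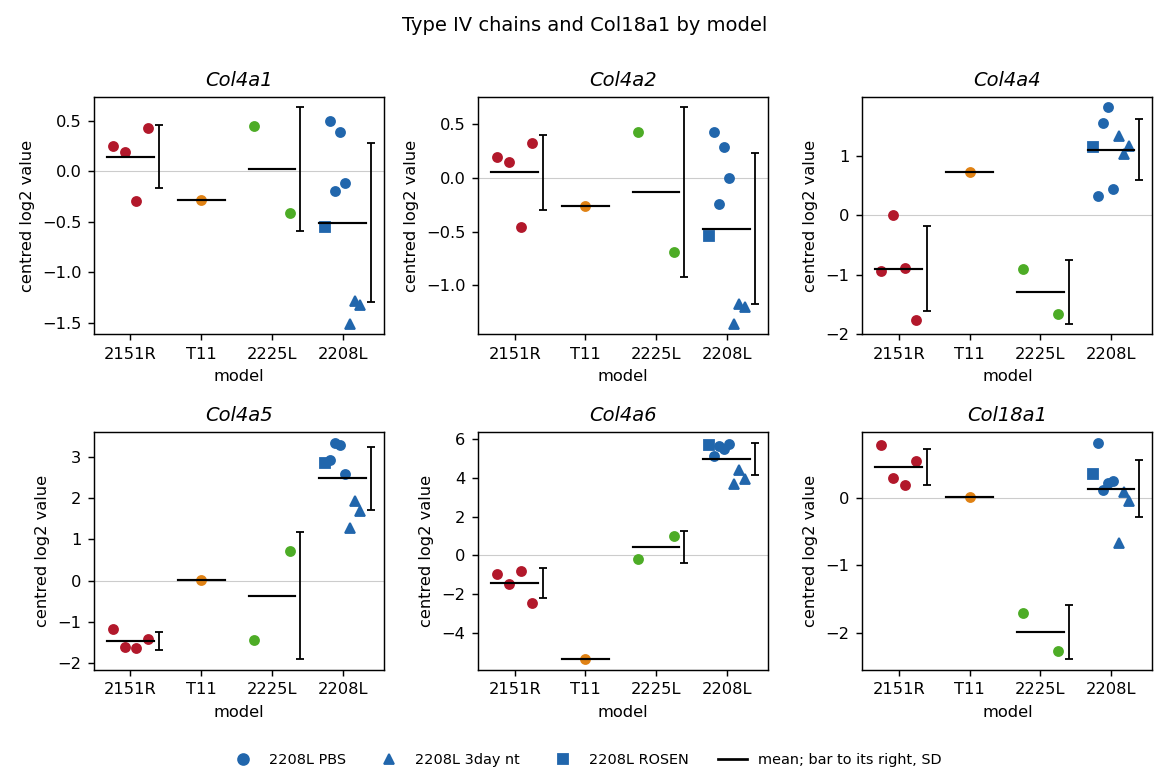
Centred log2 values (vertical axis) of Col4a1, Col4a2, Col4a4, Col4a5, Col4a6 and Col18a1 in each sample, by model; horizontal lines are means and the bar beside each is the SD. Col4a5 and Col4a6 are highest in all 8 samples of 2208L, and the 3 samples titled 3day nt (triangles) are the lowest for Col4a1 and Col4a2.

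Col4a5 and Col4a6 are neighbours on chromosome X and are read in opposite directions, Col4a6 at chrX:141165403-141474095 and Col4a5 at chrX:141475370-141689236 (GRCm38.p6). The transcript starts used for their promoters, 141474076 and 141475419, each lie inside the gene and are 1343 bases apart. Col4a5 and Col4a6 both fell from 2208L to 2151R, but by unlike amounts, with differences of -3.94 and -6.41. The difference between them had an SD of 2.17 over the 15 samples, where Col4a5 itself had an SD of 1.942 and Col4a6 3.635. These SDs are wider than those of Col4a1 and Col4a2 (0.6701 and 0.6124), so the SDs of the 2 pair differences cannot be compared directly. In T11, Col4a5 stood at 0.01 while Col4a6 stood at -5.37. The 5 genes on either side were looked at after these values were seen. From 2208L to 2151R 0 of those 10 genes rose and 4 fell, the lowest at -1.95 (Acsl4) and -1.79 (Mid2). Of all genes 26.1% were higher and 22.7% lower there, and 10 genes are too few to set apart from that share. The sequence before each start is shown because the 2 genes lie back to back and differed in the size of their response. Col4a6 is read at chrX:141474096-141474326 on the minus strand and Col4a5 at chrX:141475169-141475369 on the plus strand, both from RefSeq, each running toward its gene and ending at the first annotated exon. Capitals mark a CCAAT match.
Col4a6: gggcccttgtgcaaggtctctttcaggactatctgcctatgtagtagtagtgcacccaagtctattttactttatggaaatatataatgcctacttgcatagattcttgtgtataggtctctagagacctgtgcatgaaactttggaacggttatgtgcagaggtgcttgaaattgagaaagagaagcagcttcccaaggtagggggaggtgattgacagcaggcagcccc
Col4a5: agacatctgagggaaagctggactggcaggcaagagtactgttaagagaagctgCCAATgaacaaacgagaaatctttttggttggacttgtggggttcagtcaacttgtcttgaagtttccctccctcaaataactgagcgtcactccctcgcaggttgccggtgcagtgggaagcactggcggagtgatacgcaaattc
Both strands of each were searched for 5 motifs: the letters GGGCGG bound by Sp factors, the SOX core written as ACAAAG, the E-box written as CACCTG, the promoter element with letters TATAAA and the element with letters CCAAT. The only match was CCAAT in Col4a5, at 196 bases before the transcript start at 141475419, which lies past the end of the printed window. Of 32851 promoter windows of that length 28.6% hold it. No match says only that these letters are not in this window.

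The network chains were mixed. Col8a1 and Col8a2 encode type VIII, a short-chain collagen of vessel walls and the corneal membrane, and Col10a1 encodes type X, a product of hypertrophic cartilage. Col8a1 measured -0.72, 0.00, -1.03 and -0.81 in 2151R, -1.31 and -0.70 in 2225L and 1.79 in T11, against -0.98, 0.60 and 1.32 in 2208L. Col8a2 measured -3.32, -2.27, -4.79 and -2.12 in 2151R, 0.68 and 0.59 in 2225L and 1.18 in T11, against -2.12, -1.19 and 0.54 in 2208L. Both were highest in T11 and both fell from 2208L to 2151R, by 1.04 (adjusted p = 0.0293) and 2.15 (adjusted p = 0.00892). The Col8a1 call was lost without 2151R replicate 1, 3 or 4, and both calls were lost without the 3 libraries with high skeletal muscle genes, at -0.90 (adjusted p = 0.12) for Col8a1 and -1.67 (adjusted p = 0.0533) for Col8a2. Only Col8a1 fell in 2225L, by 1.41 (adjusted p = 0.034), a call lost in 8 of 25 alternatives. Col8a2 was 3.76 higher in 2225L than in 2151R (adjusted p = 0.00254). Col10a1 measured -0.22, -2.34, -3.19 and -2.59 in 2151R, -0.45 and 0.42 in 2225L and 0.67 in T11, against -3.13, 1.40 and 2.89 in 2208L. Its wide spread inside 2208L followed the titles, as described for the PBS samples. The class median was -2.16 from 2208L to 2151R with 2 of 3 chains lower, and -0.37 to 2225L with 1 lower. The shares of all genes lower were 22.7% and 17.3%.

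The fibril-associated chains held the largest differences of the 41 from 2208L to 2151R. Col9a1, Col9a2 and Col9a3 together form type IX, which coats type II fibrils in cartilage. Col9a1 measured -4.21, -4.72, -4.59 and -4.86 in 2151R, 0.75 and 3.45 in 2225L and -9.50 in T11, against 3.39, 3.96 and 4.73 in 2208L. Col9a2 measured -4.60, -5.10, -4.77 and -4.86 in 2151R, 0.18 and 3.35 in 2225L and -11.21 in T11, against 0.00, 0.58 and 0.92 in 2208L. Col9a3 measured -6.11, -7.36, -6.36 and -6.19 in 2151R, 1.47 and 2.61 in 2225L and -7.99 in T11, against 0.00, 0.71 and 1.47 in 2208L. In all 3, 2151R and T11 lay below every sample of the other models. From 2208L to 2151R, Col9a1 fell by 8.68 (SE 0.41, adjusted p = 1.62e-09), Col9a3 by 7.15 (SE 0.31, adjusted p = 6.71e-10) and Col9a2 by 5.30 (SE 0.42, adjusted p = 2.92e-07). In 2225L the chains went apart: Col9a1 fell by 1.99 (adjusted p = 0.0117), Col9a3 was 1.39 higher (adjusted p = 0.0174) and Col9a2 differed by 1.30 (adjusted p = 0.0851). The Col9a1 call was lost without 2225L replicate 1, at -0.63 (adjusted p = 0.314), and the Col9a3 call without replicate 2, at 0.82 (adjusted p = 0.262). Both were lost with sample weights, and the Col9a3 call also with quantile normalization.

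Cartilage markers moved beside these chains. Of 9 listed, 6 are in the table, and their list level was -1.72 to -0.99 in 2151R, -0.22 to 0.48 in 2208L, 1.05 and 2.84 in 2225L and -0.04 in T11. From 2208L to 2225L 3 of the 6 rose and 1 fell. Cnmd was 6.23 higher and Snorc 8.01 higher, both secreted or membrane proteins of cartilage, and the one that fell was the cartilage matrix gene Comp, at -3.49 (adjusted p = 0.0432). In 2151R 1 rose, the lubricin gene Prg4 at 2.75, and 3 fell, with Comp at -4.57, Snorc at -3.82 and Cnmd at -3.27. Of all genes 15.6% were higher and 17.3% lower in 2225L, and 26.1% and 22.7% in 2151R, each against 2208L. The part of the cartilage markers in the type II and type IX differences was not tested.

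Col16a1, a fibril-associated chain of many tissues, measured -1.22, -1.39, -1.46 and -1.02 in 2151R, -0.65 and -0.20 in 2225L and -0.49 in T11, against 0.02, 0.31 and 0.61 in 2208L. All samples of the other models lay below all of 2208L, and the differences were -1.59 for 2151R (adjusted p = 9.23e-07) and -0.74 for 2225L (adjusted p = 0.00764). The second was lost with sample weights, with a minimum of 1 log2 unit and without 2225L replicate 1, at -0.52 (adjusted p = 0.102). Col12a1, which binds type I fibrils, measured 1.08, 1.30, 0.22 and 1.85 in 2151R, -1.50 and -1.43 in 2225L and 0.72 in T11, against -1.73, 0.30 and 1.08 in 2208L. It fell by 1.60 from 2208L to 2225L at an adjusted p of 0.048, and that call was lost in 16 of 25 alternatives. Col20a1 measured -0.76, -1.01, -0.76 and -0.41 in 2151R, 0.09 and -0.42 in 2225L and -0.77 in T11, against -1.01, 0.16 and 0.57 in 2208L, and its fall of 0.73 in 2151R (adjusted p = 0.0452) was lost in 11 of 25. Col14a1 passed no comparison, and Col19a1, Col21a1 and Col22a1 were not analysed here.

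**Figure D4:**
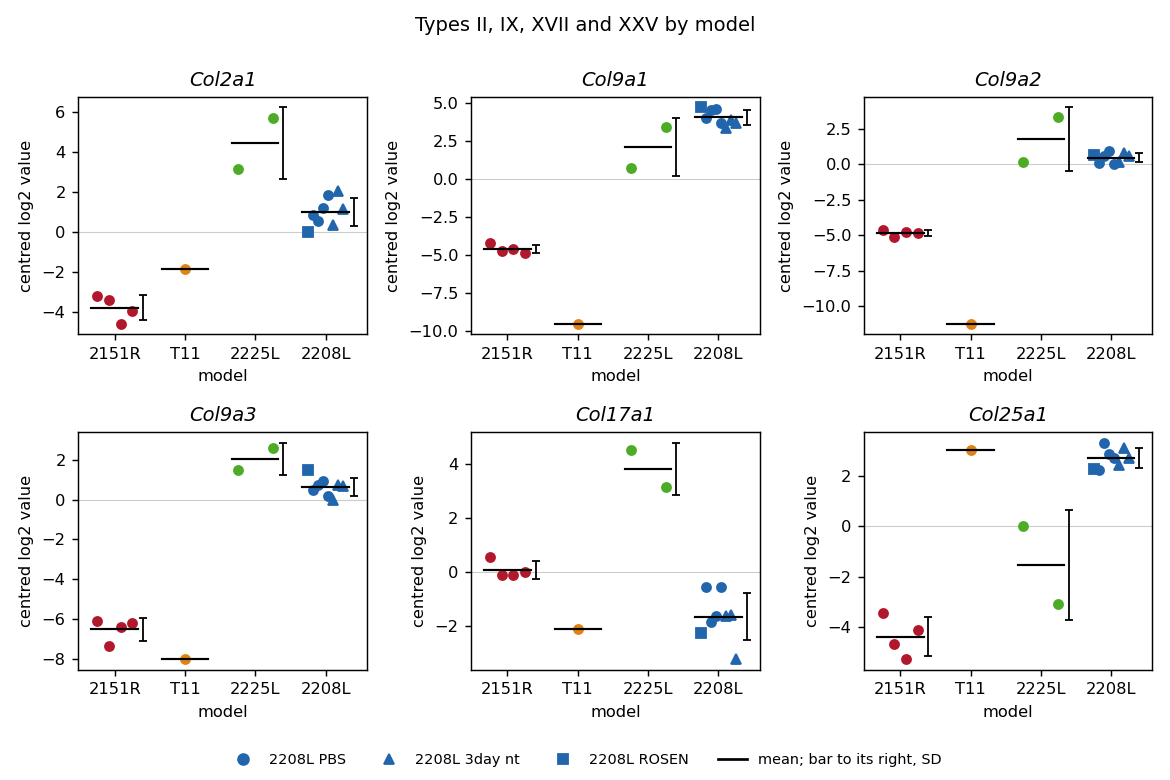
Centred log2 values (vertical axis) of Col2a1, Col9a1, Col9a2, Col9a3, Col17a1 and Col25a1 in each sample, by model; horizontal lines are means and the bar beside each is the SD. The 4 samples of 2151R and the T11 sample lie below the other models for Col2a1 and the type IX chains, and both samples of 2225L stand above all others for Col17a1.

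The membrane-spanning chains differed in which model was highest. Col17a1, the hemidesmosome collagen of basal epithelial cells, measured 0.55, -0.13, -0.13 and 0.00 in 2151R, 4.5 and 3.14 in 2225L and -2.13 in T11, against -3.23, -1.63 and -0.55 in 2208L. Both samples of 2225L lay above all others, and the difference from 2208L was 5.48 (SE 0.57, adjusted p = 1.44e-05). It was 6.08 within CP and 5.41 within ROSEN libraries. Of 5 basal epithelial markers 3 rose beside it, Krt5 by 9.81 and Krt14 by 4.5 among them, while Dsg3 at -2.92 (adjusted p = 0.106) and Itgb4 at -0.62 (adjusted p = 0.181) did not pass. Of all genes 15.6% were higher and 17.3% lower in 2225L, and 26.1% and 22.7% in 2151R, each against 2208L. The part of the basal markers in the Col17a1 difference was not tested. In 2151R, Col17a1 was 1.74 higher than in 2208L (adjusted p = 0.00548), a call lost with only the samples titled NT, nt or PBS (adjusted p = 0.0936), and of the 5 basal markers 1 rose, Krt5 at 4.73, and 4 fell. Col25a1, a transmembrane collagen known from neurons and motor innervation, measured -3.47, -4.70, -5.29 and -4.12 in 2151R, 0.00 and -3.11 in 2225L and 3.04 in T11, against 2.26, 2.74 and 3.34 in 2208L. T11 thus lay with 2208L, while Col25a1 fell by 7.12 in 2151R (SE 0.48, adjusted p = 5.3e-08) and by 4.28 in 2225L (adjusted p = 0.000197). Col23a1 measured 1.54, 1.90, 2.37 and 2.86 in 2151R, -0.72 and -1.10 in 2225L and 0.93 in T11, against -3.01, 0.05 and 2.07 in 2208L, and was 2.21 higher in 2151R (adjusted p = 0.0222) with overlapping ranges, a call lost without 2151R replicate 3 or 4. Col13a1, a collagen of the neuromuscular junction and focal adhesions, passed no model comparison.

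The sequences before the starts of Col9a1 and Col17a1, the chains with the largest fall in 2151R and the largest rise in 2225L, are shown from RefSeq (GRCm38.p6). Col9a1 lies at chr1:24177360-24177588 on the plus strand and Col17a1 at chr19:47692095-47692292 on the minus strand, and capitals mark TATAAA.
Col9a1: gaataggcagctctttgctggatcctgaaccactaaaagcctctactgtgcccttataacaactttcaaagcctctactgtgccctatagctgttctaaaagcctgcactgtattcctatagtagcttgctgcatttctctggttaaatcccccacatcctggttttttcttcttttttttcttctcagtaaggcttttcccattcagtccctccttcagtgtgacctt
Col17a1: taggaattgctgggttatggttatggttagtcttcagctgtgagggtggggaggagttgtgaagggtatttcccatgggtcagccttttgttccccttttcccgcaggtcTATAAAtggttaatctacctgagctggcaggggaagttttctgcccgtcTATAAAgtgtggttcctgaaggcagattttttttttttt
The same 5 motifs were searched on both strands. Col17a1 holds TATAAA at 140 and 91 bases before its transcript start, a motif held by 9.08% of windows of that length. Its window stops at 47692095, short of the transcript start at 47692042, and the bases between were neither printed nor searched. Col9a1 holds none of the 5, ACAAAG included, which 15.4% of windows of its length hold.

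Type VI collagen forms beaded filaments around cells in most connective tissue. Col6a1 and Col6a2 join with Col6a3 or with the rarer Col6a4, Col6a5 and Col6a6. Col6a1 measured 0.35, 0.67, 0.00 and 0.71 in 2151R, -0.52 and -0.93 in 2225L and 1.36 in T11, against -1.65, -0.33 and 0.26 in 2208L. Col6a3 measured 0.29, 0.63, 0.03 and 1.04 in 2151R, -1.33 and -1.46 in 2225L and 1.56 in T11, against -0.75, -0.22 and 0.28 in 2208L. T11 was the highest sample for both. From 2208L to 2151R they rose by 0.94 (adjusted p = 0.0219) and 0.73 (adjusted p = 0.0204), and Col6a3 fell by 1.16 in 2225L (adjusted p = 0.0103), where both samples lay below all of 2208L. Both rises were lost without 2151R replicate 2 or 4, and with only the samples titled NT, nt or PBS. The fall was lost with sample weights and without 2225L replicate 2, at -1.10 (adjusted p = 0.0736). Col6a2 tracked Col6a1, with an SD of 0.267 for their difference over the 15 samples, and its own difference of 0.65 in 2151R missed the threshold (adjusted p = 0.0967). Col6a4, Col6a5 and Col6a6 passed no model comparison.

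Col18a1, the multiplexin whose cleaved end is endostatin, was set apart by 2225L. It measured 0.78, 0.29, 0.18 and 0.54 in 2151R, -1.70 and -2.27 in 2225L and 0.01 in T11, against -0.67, 0.16 and 0.81 in 2208L. Both 2225L samples were the lowest of all, and the difference from 2208L was -2.12 (SE 0.30, adjusted p = 0.00016). Col15a1, the other multiplexin, passed no comparison. Col7a1, which builds the anchoring fibrils under stratified epithelium, measured 0.48, -0.48, 0.00 and 0.70 in 2151R, -0.44 and -2.03 in 2225L and -0.19 in T11, against -2.88, -0.92 and -0.36 in 2208L, and was 1.29 higher in 2151R (adjusted p = 0.0266) with overlapping ranges, a call lost without 2151R replicate 1 or 4. Col28a1, a collagen known around peripheral nerve glia, measured 3.12, 4.18, 2.72 and 1.39 in 2151R, -1.72 and -1.2 in 2225L and 2.11 in T11, against -1.71, -0.73 and 1.69 in 2208L. It was 3.19 higher in 2151R (adjusted p = 0.00138), with overlapping ranges, and 2.19 (adjusted p = 0.0625) with only the samples titled NT, nt or PBS. Col26a1 measured 6.95 in 2225L replicate 2, the highest value it had anywhere, and -1.08 in replicate 1. The value -1.08 was exactly the same in 5 samples, and what it stands for is not stated. Col26a1 passed no comparison.

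In the single T11 sample most fibrillar and network chains were high, type VI was mixed, and type IX and Col4a6 were low. Against the mean of 2208L, 14 of 41 chains were at least 1 log2 unit higher and 8 at least 1 lower (34.1% and 19.5%), beside 22.9% and 15.6% of all genes. Of 11 fibrillar chains 7 were higher and 1 lower, with a median difference of 1.24, and 2 of 3 network chains were higher, with a median of 1.38. Of 6 type VI chains 4 were higher and 1 lower (Col6a6 at -1.94, within the range of 2208L), while Col6a5 differed by -0.16. Against the 2151R mean 2 of the 6 were higher and Col6a6 differed by -2.97. Of all 17271 genes 2598 were at least 1 log2 unit higher than that mean and 1809 lower. Against the 2208L mean the median difference over all genes was 0.18, and it was 0.02 when each sample was centred on its own median. Col24a1 stood 2.67 above the 2208L mean, Col6a1 1.86 and Col5a2 1.76. Col9a1 differed by -13.58, Col9a2 by -11.68 and Col4a6 by -10.35, each outside the range of 2208L. Against the 2151R mean, Col25a1 was 7.43 higher and Col8a2 4.31 higher in T11, while Col9a2 was -6.38. These differences have no replicate check.

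**Figure D5:**
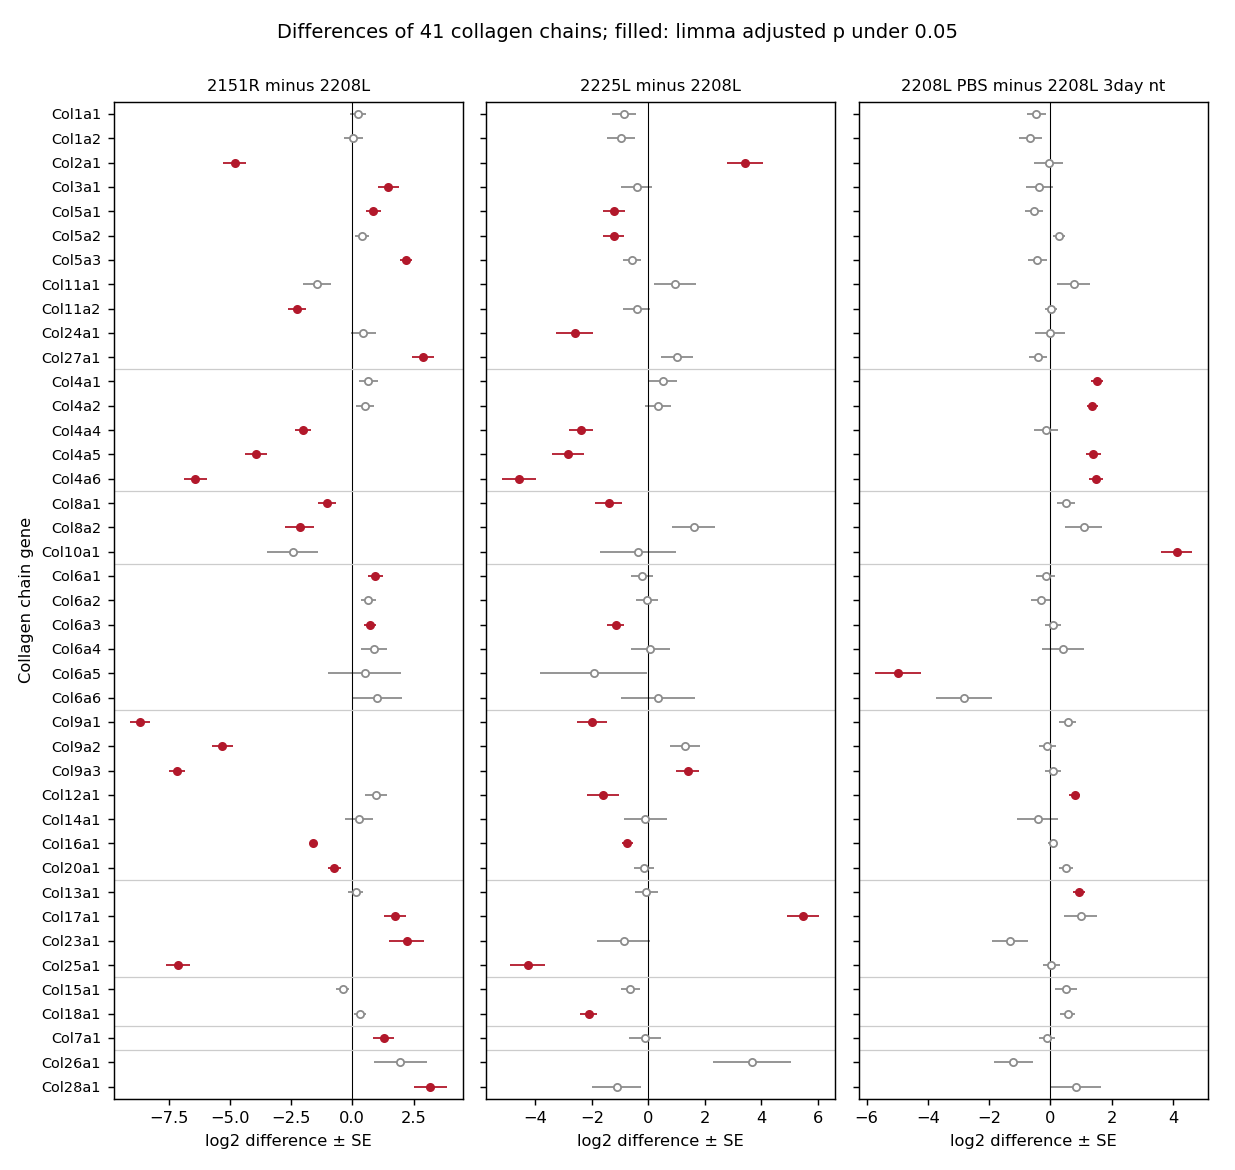
Log2 difference (horizontal axis, with its SE) of each of the 41 collagen chains in 2151R minus 2208L, 2225L minus 2208L and, inside 2208L, PBS minus 3day nt. Filled points passed an adjusted p of 0.05 in limma, which 23, 16 and 8 chains did.

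Inside 2208L, the 4 PBS samples were compared with the 3 titled 3day nt in a fit of those 7 samples. Of 41 chains 7 were higher in PBS and 1 lower (17.1% and 2.44%), beside 17.4% and 16.5% of all genes. The type IV chains were 4 of the 7 and 4 of their 5, with a class median of 1.40 beside -0.05 over all genes, while 0 of 11 fibrillar chains passed in either direction with limma, nor did any at an unadjusted p under 0.05 (0 higher and 0 lower), and their median was -0.36. Col4a1 measured 0.49, -0.19, 0.39 and -0.12 in PBS and -1.50, -1.28 and -1.33 in 3day nt. Col4a2 measured 0.43, -0.25, 0.29 and 0.00 and -1.36, -1.17 and -1.2. Col4a6 measured 5.13, 5.67, 5.51 and 5.78 and 3.70, 4.42 and 3.95, and Col4a5 2.92, 3.34, 3.28 and 2.59 and 1.27, 1.94 and 1.69. In each of the 4, every PBS sample lay above every 3day nt sample. The differences were 1.51 for Col4a1 (SE 0.20, adjusted p = 0.00475), 1.36 for Col4a2 (adjusted p = 0.00469), 1.49 for Col4a6 (adjusted p = 0.00629) and 1.40 for Col4a5 (adjusted p = 0.00837). Col10a1 gave the largest rise. It measured 2.89, 1.92, 1.59 and 1.61 in PBS and -3.13, -1.88 and -1.35 in 3day nt, a difference of 4.12 (adjusted p = 0.00397). Col13a1 (0.94) and Col12a1 (0.79) were also higher, the latter not called without 2208L replicate 6.

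Col6a5 was the chain lower in PBS, at 0.17, -0.61, -0.77 and 0.90 against 6.65, 3.73 and 4.33, a difference of -4.98 (adjusted p = 0.00626). Col6a6 differed by -2.83 and missed the threshold (adjusted p = 0.0516). Skeletal muscle genes moved with this comparison, since 2 of the 3 samples titled 3day nt are the libraries at 9.10 and 8.59 on that list, and the third, replicate 7, stood at 0.50 beside -4.19 to 1.34 in PBS. Adipocyte genes stood at -3.36, -4.32, 1.81 and -3.95 in PBS and 1.73, 1.28 and 1.26 in 3day nt, with 0 of 6 called in limma and 3 lower at an unadjusted p under 0.05 (Adipoq, Plin1 and Cfd), and their part in these differences was not tested. With those 2 libraries left out, the fit held 1 sample titled 3day nt, which is assumed to vary like the PBS samples. The median PBS minus 3day nt difference over the 41 chains was then 0.37, beside 0.0006 over all genes. That fit has fewer samples, so whether the calls rest on those 2 libraries was not tested. In replicate 7 alone, Col4a1 stood at -1.28 and Col6a5 at 3.73, while the PBS samples ran from -0.19 to 0.49 and from -0.77 to 0.90.

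The genes that make, join, cut and bind collagen were counted from lists. Over all genes 26.1% were higher and 22.7% lower in 2151R, and 15.6% higher and 17.3% lower in 2225L, each against 2208L. In 2151R against 2208L, enzymes of procollagen processing and crosslinking were higher where they passed: of 13 measured 6 rose and 0 fell (46.2% and 0%), with Pcolce2, an enhancer of propeptide removal, at 4.73, the propeptidase Adamts14 at 2.56 and the lysyl oxidase Loxl4 at 2.43. In 2225L against 2208L 0 of the 13 rose and 7 fell (53.8%), Adamts14 at -2.75 and Pcolce2 at -1.93 among them. Of 20 genes for chain hydroxylation and folding 1 rose and 3 fell in 2151R (5.0% and 15.0%, both under the share of all genes), with the prolyl hydroxylase P3h2 at -3.05 and the chaperone Fkbp10 at 1.48. In 2225L 0 rose and 6 fell (30.0%), P4ha2 at -1.30 being the lowest. Of 9 collagen receptors the 2 discoidin domain receptors went opposite ways in 2151R, Ddr2 at 4.31 and Ddr1 at -2.0, and the other 7 did not pass. In 2225L Lair1 (-1.47) and Itgb1 (-1.32) fell.

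Of 7 collagen-cutting proteases 3 rose and 0 fell in 2151R: Mmp9 at 4.93, Ctsk at 2.23 and Mmp14 at 1.21. In 2225L 0 rose and 2 fell, Mmp13 at -3.47 and Mmp9 at -1.79. Of 10 fibril-binding genes only the proteoglycan gene Dcn passed in 2151R, at 3.56, and 2 fell in 2225L, Thbs2 at -2.99 and Fn1 at -2.95, a share of 20.0% that lies near that of all genes. Of 14 basement membrane partners 5 rose and 6 fell in 2151R (35.7% and 42.9%). Among those that fell were the laminin chains Lamb3 at -4.70 and Lama5 at -2.71. In 2225L 0 rose and 2 fell, the laminin chain Lamb1 at -1.29 among them, and 14.3% is under the share of all genes. In PBS against 3day nt 7 of these 14 partners and 7 of the 20 synthesis genes were higher (50% and 35%) and 0 lower, beside 17.4% of all genes higher and 16.5% lower. In the fit of all 7 samples, P3h2 was 1.75 and P4ha1 1.49 higher in PBS, and Lama3 2.23 and Nid2 1.98. The 3day nt group here includes the 2 libraries with high skeletal muscle genes, replicates 6 and 8. Without replicate 6 alone 1723 genes in all were higher and 1227 lower, and without replicate 8 alone 1362 and 1017, in place of 3007 and 2857. Without both, 1 sample titled 3day nt remains, so whether the calls rest on those libraries was not tested.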

How the data were processed

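RNA-seq was deposited for 15 mouse mammary tumours. The table the authors deposited has a row for each of 17271 genes and is in log2 units with median centring, as its name states. Neither the reference of the centring nor the offset or normalization is given in the sources used here. STAR, Salmon and mm10 are named per the submitters' processing notes, with no role given. The table holds no counts, so depth is unknown and precision rests on the spread between samples. In 727 genes (4.21%) a value is repeated exactly in 2 or more samples, Col26a1 among them, and such values were used as deposited.

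The sample titles gave the model, and replicate numbers follow accession order. Tests used lmFit and eBayes of limma 3.58.1 (R 4.3.3), tested on simulated data. The 15 samples entered 1 fit with 4 model means, and the 7 PBS and 3day nt samples of 2208L another. Every adjusted p is a Benjamini-Hochberg value over 17271 genes, called under 0.05. A model difference is 1 model's mean minus the other's on the log2 scale. Tables and figures were made with Python 3.11.15. The alternatives were median centring, quantile normalization, a robust fit, sample weights, filters on SD (0.25) and on repeated values, other sample sets, library prefix as a covariate, a minimum of 1 log2 unit and leaving out each sample.

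All 41 chains were accounted for by class. Per-sample values are given for each fibrillar, basement membrane and network chain and for each other chain called in a model comparison. From each other list at most 3 called genes are named, those that differed most from 2208L in 2151R, and at most 2 for another comparison; some genes this rule would name are not reported here. The members and lists were chosen with earlier results of these data known, so no count is independent evidence. Promoter sequences are from RefSeq on GRCm38.p6, which held 34 of the 41 chains, and were trimmed to end before the first annotated exon. The Col17a1 window stops short of its transcript start.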

Additional observations from a re-analysis of the deposited data

Results flagged for a closer look

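In 4 of 82 groups of 4 to 10 samples, 1 sample of a collagen chain lay far from the others by Dixon's test, and chance flags about 1 in 20 groups (4.1 of 82). Col11a2 was -1.58 in 2208L replicate 1, against 0.00 to 0.58 in the other 7 samples of that model. Col7a1 was -2.88 in the same sample, against -1.43 to -0.36. Col14a1 was 2.02 in 2151R replicate 2, against -0.49 to -0.33 in the other 3 samples. Col5a3 was 1.48 in 2151R replicate 3, against 1.99 to 2.09.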

How the results depend on the processing

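No called chain reversed under any alternative. No paired analysis was possible because no replicate number is given in the titles. For 2151R against 2208L, chains called higher went from 10 to 4 with only the samples titled NT, nt or PBS. Col17a1, Col28a1, Col3a1, Col5a1, Col6a1 and Col6a3 were lost there. That setting keeps 2 samples of 2151R, and over all genes 2658 were higher in place of 4508. Leaving out each sample gave 5 to 11 chains higher (5 without 2151R replicate 4) and 11 to 14 lower. Without 2151R replicate 4, 3750 genes in all were higher. For 2225L against 2208L, sample weights left 4 chains lower in place of 13, and leaving out each sample gave 2 to 5 higher and 6 to 13 lower (6 without 2225L replicate 1, 8 without replicate 2). With library prefix as a covariate 9 chains were lower. Over all genes 2994 were lower in the main fit, 1200 with sample weights and 2910 with library prefix as a covariate. For 2225L against 2151R, sample weights left 5 chains higher and 5 lower, with the calls for Col3a1, Col8a2 and Col11a1 among those lost. Over all genes sample weights gave 2529 higher and 2723 lower in that comparison, in place of 3934 and 4464. Leaving out each sample there gave 7 to 12 higher and 8 to 14 lower (7 and 8 without 2225L replicate 2). For PBS against 3day nt, sample weights gave 13 chains higher and 7 lower, leaving out genes with a repeated value gave 2 lower, and leaving out the libraries with high skeletal muscle genes gave 0 and 0. Leaving out each sample gave 6 to 11 higher (11 without 2208L replicate 5) and 1 to 2 lower. With sample weights 5938 of all genes were higher and 5754 lower in PBS, in place of 3007 and 2857. Without the libraries with high skeletal muscle genes 1 sample titled 3day nt remains. The counts of 0 there cannot show whether the calls rest on those libraries. The cause of these shifts was not tested. The median of the basement membrane chains in 2151R against 2208L was -2.54 with sample weights, and in 2225L against 2208L it ran from -2.50 to -1.76 as samples were left out, highest without 2225L replicate 1. The median of the network chains in 2225L against 2208L was -1.33 with sample weights and -1.82 with the PBS samples alone as 2208L, an alternative chosen after seeing the data, and it ran from -0.87 to 0.06 as samples were left out. The calls for Col4a6, Col25a1, Col17a1, Col2a1 and Col18a1 in 2225L against 2208L held in all 25 alternatives. So did those for Col4a4, Col4a5, Col4a6, Col9a1, Col9a2, Col9a3, Col2a1, Col11a2, Col5a3, Col27a1, Col16a1 and Col25a1 in 2151R against 2208L. With 2 samples of 2225L and 1 of T11, values of these models rest on few libraries, and depth could not be weighed because no counts are given.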

Other observations

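Genes with a sample profile close to that of Col1a1 were ranked as a description, by Pearson's correlation of the values over the 15 samples, which share models and libraries. The 5 closest non-collagen genes were Lox, Hic1, Srpx2, C1qtnf3 and AI427809. Lox encodes the lysyl oxidase that crosslinks fibrillar collagen.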
